A study of Equus caballus with 4 samples.

Results

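The genes described here make the translation initiation and elongation factors, the nascent polypeptide-associated complex and the GTPases GTPBP1 and GTPBP2. They were taken by gene name, as every gene probe whose name begins with EEF1 or EEF2, is built as EIF followed by a digit from 1 to 6, or is BTF3, BTF3L4, NACA, GTPBP1 or GTPBP2. The rule found 52 of the 24998 gene names on the array, with 93 probes. It reads names alone and no measured value, but it names BTF3 and GTPBP1 singly. The study had picked both for RT-qPCR with these arrays known, so their place here is not independent of their values. NACA, the alpha subunit of the nascent chain complex, was not among the gene names. Of the 52 genes, 49 were tested, with 88 probes, against 13692 tested genes in all.

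Gene expression was measured in equine satellite cells (ESC), the stem cells of skeletal muscle, taken from m. semitendinosus and held in culture until the 3rd day of differentiation. Treated cells (n = 4 samples) received gamma-oryzanol (GO), a mixture of ferulic acid esters from rice bran, at 0.125 µM for 24 h, with 3 mM hydrogen peroxide during the last 1 h. Control cells were cultured without GO, and by the methods both media held DMSO, the solvent of GO. The labels leave out whether the controls were given the peroxide, but the study's account of its design has them incubated with it, so that both groups shared the peroxide and differed by GO. According to the methods the cells came from muscle of young stallions, and the best primary line was chosen, so that the samples may derive from 1 line. The labels call the arrays biological replicates. They name the control of every array as replicate 1, while the design speaks of 4 controls, so the number of separate control cultures is unsettled and the p-values may cover a spread that is partly technical.

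Each of the 4 arrays carried treated RNA in red (Cy5) and control RNA in green (Cy3), with no dye swap. Effects of dye and of treatment therefore cannot be told apart in any value below. The measure was the log2 ratio of treated over control signal, so that a negative value means less signal in treated cells. A gene was called higher or lower where limma's adjusted p over all tested probes was under 0.05, and its value was that of its brightest probe. In these bulk samples fewer cells of a type and less RNA per cell cannot be told apart. Skeletal muscle markers were detected, with 10 of 10 tested, and so were fibroblast markers, with 6 of 7 tested, among them COL1A2, COL3A1 and DCN. Of the latter THY1 was higher (0.28) and LUM lower (-0.43). Over all 6 tested fibroblast markers the summed signals were 371163 to 434860 in treated and 306650 to 380236 in control cells. The brightest of the 6, COL1A2 and COL3A1 (mean log2 signals 17.56 and 16.93), did not pass (limma adjusted p = 0.091 and 0.13). Of 4 leukocyte markers 2 were tested and CD14 was lower (-0.17), while 4 of 5 endothelial and 2 of 3 adipocyte markers were not above background on any array. The part of other cell types in the results below was not tested.

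Protein synthesis starts when eIF2 brings the initiator tRNA to the small ribosomal subunit, with eIF3 as the large scaffold around it, and when the eIF4 proteins attach the capped mRNA. eIF5 and eIF5B then complete the joining of the subunits, and eEF1 and eEF2 drive the elongation of the chain. The nascent chain complex, a dimer of NACA and BTF3, sits at the exit of the ribosome and meets each new chain, while GTPBP1 and GTPBP2 are GTPases related to eEF1A, of which GTPBP2 is known for the rescue of stalled ribosomes.

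Of the 49 tested genes, 15 were past the threshold (30.6%), 6 higher and 9 lower. Over all tested genes the share was 17.1%, made of 9.93% higher and 7.16% lower. At the level of probes, 33 of 88 were past the threshold, 11 higher and 22 lower, against 17.1% of all tested probes (9.49% higher and 7.59% lower). The 5 overlapping probes of GTPBP1 are among the 11 higher, and overlapping probes of EEF1E1 (4), EIF3L (3) and BTF3 (2) are among the 22 lower. The 88 probes read 66 separate sites, so probe counts in both directions hold repeat readings. BTF3 and GTPBP1, which the study picked for RT-qPCR with these arrays known, count among the 15 genes. The higher genes were GTPBP1, GTPBP2, EEF1A2, EIF3D, EIF4G1 and EIF4EBP1, and the lower genes were BTF3, EIF5, EIF2A, EEF1E1 and the eIF3 subunits EIF3A, EIF3E, EIF3H, EIF3L and EIF3M. Most changes were slight. The called genes had a median absolute log2 ratio of 0.24, and only GTPBP1 and EIF3M also reached a fold of 1.3, a pair of rules that 1.42% of all tested genes passed. The study's methods name this fold limit, while its list of genes was drawn up with a looser one.

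Among all 49 genes, 33 had a negative and 16 a positive mean log2 ratio. Their median was -0.088, with medians of -0.11, -0.027, -0.060 and -0.054 on the arrays of replicates 1 to 4, beside a median of 0.0088 over all tested genes. The SD between arrays was alike, with a median of 0.086 for these genes and 0.093 for all tested genes. All 49 were well above background in both channels on all 4 arrays, so the filter on dim probes selected none of them through 1 group. Signals of treated and control cells did not overlap for 4 higher and 9 lower genes, where 7.26% and 6.08% of all tested genes showed the same. These signals, and all signal ranges given for treated and control cells, were taken after quantile normalisation of mean signal between arrays. Before that step, the median over tested probes of the mean log2 signal ran from 8.73 to 9.28 between arrays.

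The number of calls changed when 1 array was left out. Without replicate 1 or without replicate 4, limma called no member gene (0 of 49, with 15 and 19 at an unadjusted p under 0.05), and without replicate 3 it called GTPBP1 alone. Without replicate 2 it called 10, of which 7 were among the 15. Over all tested probes the called share without replicates 1, 2, 3 and 4 was 0.00825%, 16.1%, 0.157% and 0%. The means of the 15 genes kept their sign whichever array was left out. GTPBP1 ranged from 0.54 to 0.57 and EIF3M from -0.40 to -0.37, while EIF3D ranged from 0.19 to 0.30 and EIF3A from -0.29 to -0.18.

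**Figure D1:**
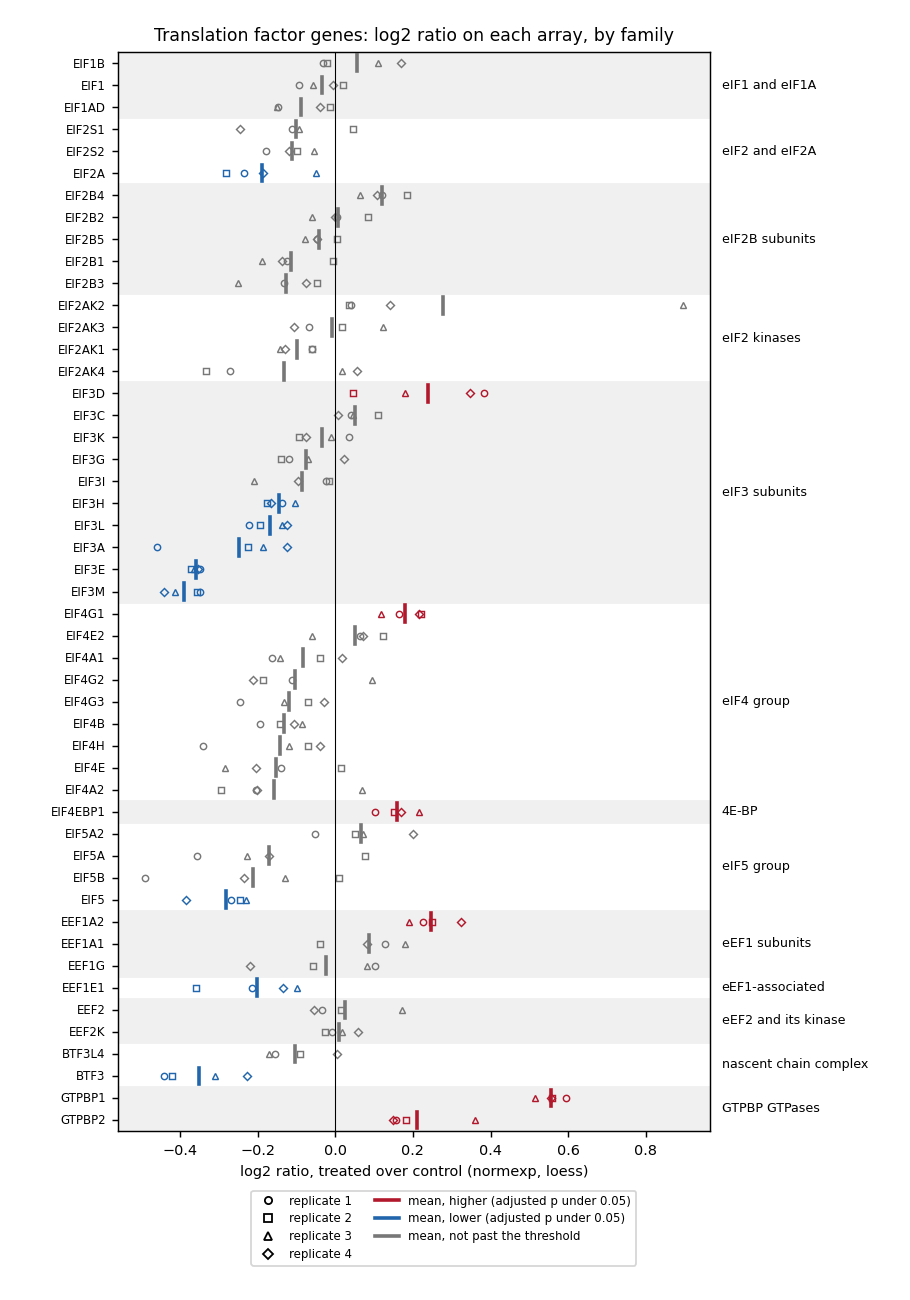
Log2 ratio of treated over control cells (x axis) for the 49 tested genes (rows), grouped by factor family. Symbols are the 4 arrays and vertical bars their mean, red for higher, blue for lower and grey for genes not past the threshold. The 5 lower eIF3 subunits and BTF3 lie left of 0 on all 4 arrays, and GTPBP1 lies at 0.51 to 0.59.

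eIF3 was the family with the most calls and also the largest, with 10 tested subunits. Of these 5 were lower, 1 was higher and 4 did not pass the test. Over all tested genes 7.16% were lower and 9.93% higher. The family median was -0.12. The lowest were EIF3M and EIF3E, both PCI-domain subunits of the core of the complex.

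EIF3M had log2 ratios of -0.35, -0.36, -0.41 and -0.44 on replicates 1 to 4. All 4 arrays were lower, and treated signals (log2 12.64 to 12.77) lay below all control signals (13.06 to 13.20). The mean was -0.39 ± 0.045 (SD, n = 4), a fold of 1.31 (limma adjusted p = 0.012). EIF3E, with -0.35, -0.37, -0.36 and -0.35, had the narrowest spread of the 15 called genes. Its mean was -0.36 ± 0.011 (SD, n = 4, limma adjusted p = 0.012), with treated signals of 13.15 to 13.24 below control signals of 13.50 to 13.62. A second EIF3E probe, beside the first on the genome, was also lower at -0.24 ± 0.028 (SD, n = 4, limma adjusted p = 0.018). The first 30 bases of the EIF3M probe (chr7:86034102-86034161, plus strand, build EquCab1 as in the scanner files) and of the brighter EIF3E probe (chr9:47831351-47832463, minus strand, a span longer than the 60-base probe) are shown to fix which transcripts the 2 values belong to.
EIF3M: ggaaacaaaacttgaacaaagtgaaaaaca
EIF3E: tattgagaagaaacttaaccagaacagtag

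EIF3A, the largest subunit and a scaffold of the complex, was lower on all 3 of its probes. Its brightest probe gave -0.46, -0.23, -0.19 and -0.13, with replicate 1 the lowest. The mean was -0.25 ± 0.15 (SD, n = 4, limma adjusted p = 0.040), and treated and control signals overlapped across arrays. EIF3H and EIF3L were also lower (named after their values were seen, as were EIF5B, EIF4A1 and EIF2AK2 below). EIF3L, another PCI-domain subunit, had 3 overlapping probes between -0.18 and -0.17, all of them called, with -0.22, -0.19, -0.14 and -0.12 on the arrays for the brightest.

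EIF3H, an MPN-domain subunit, differed between its 2 probes although they adjoin. The brightest probe gave -0.14, -0.18, -0.10 and -0.17, a mean of -0.15 ± 0.033 (SD, n = 4, limma adjusted p = 0.045). The other gave -0.42, -0.42, -0.41 and -0.36, a mean of -0.40 ± 0.030 (SD, n = 4, limma adjusted p = 0.011). The difference of 0.25 had the same sign on 4 of 4 arrays (exact sign-flip test, two-sided p = 0.125, the smallest that 4 arrays allow). The last 30 bases of both probes are shown, in the order of the transcript on the minus strand. Capitals mark a stop triplet that ends the second probe, whose frame holds no earlier stop within its 60 bases. The first probe spans chr9:55256094-55257803 and the second chr9:55256034-55256093, so the lower value came from the end of the reading frame.
EIF3H, -0.15: aatacttactgccagaacatcaaggaattc
EIF3H, -0.40: gcccaggctcttcaagaatacaacaacTGA

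EIF3D, a subunit known to bind the cap of some mRNAs, moved the other way. Its ratios were 0.38, 0.045, 0.18 and 0.35, all positive but close to 0 on replicate 2. The mean was 0.24 ± 0.16 (SD, n = 4, limma adjusted p = 0.048), the spread being the widest among the called genes. The 4 subunits that did not pass, EIF3C, EIF3G, EIF3I and EIF3K, lay between -0.087 and 0.051. The 5 probes of EIF3I, each shifted by 1 base, gave -0.10 to -0.044.

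**Figure D2:**
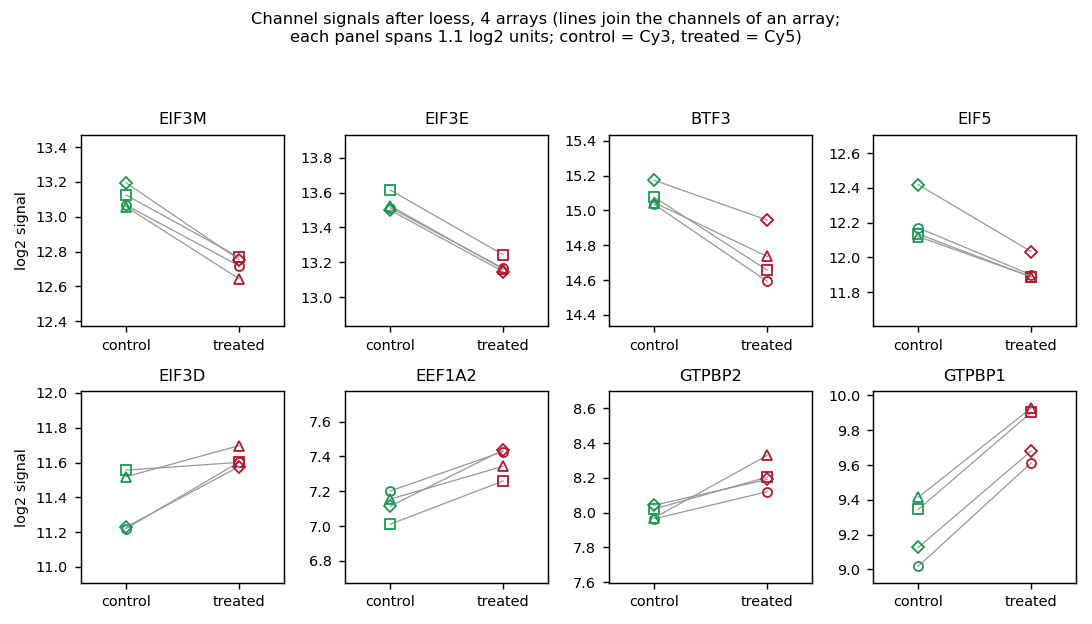
Log2 signals in control (Cy3, green) and treated cells (Cy5, red) for 8 called genes at their brightest probe. Signals are shown after loess and after quantile normalisation of mean signal between arrays. Lines join the channels of 1 array, and each panel spans the same range. In EIF3M, EIF3E, BTF3 and EIF5 every treated signal lies below every control signal, and in EIF3D, EEF1A2, GTPBP2 and GTPBP1 every treated signal lies above.

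In the nascent chain complex, BTF3 was lower. BTF3 is the beta subunit of the complex and was one of the genes that the study chose for RT-qPCR with these arrays known, so its choice is not independent of the value. By RT-qPCR the study lists it as lower, by a larger fold than on the arrays. Its ratios were -0.44, -0.42, -0.31 and -0.23, and treated signals (14.59 to 14.94) lay below all control signals (15.04 to 15.17). The mean was -0.35 ± 0.10 (SD, n = 4, limma adjusted p = 0.016). A second probe gave -0.42 ± 0.061 (SD, n = 4, limma adjusted p = 0.012), but the 2 probes (chr14:90124405-90124494, minus strand) share 30 bases, printed here because they make both values readings of nearly the same site.
BTF3, shared by both probes: atttttaagcccaagccctttggacactgc

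BTF3L4, a close relative of BTF3, had -0.16, -0.092, -0.17 and 0.0049, a mean of -0.10 ± 0.080 (SD, n = 4) that did not pass (limma adjusted p = 0.15). The difference between BTF3 and BTF3L4 was -0.25 ± 0.082 (SD, n = 4), with BTF3 the lower on 4 of 4 arrays. Over the 9 pairs of related genes compared in this way, the exact sign-flip p was 0.125 at the smallest (0.19 after Benjamini-Hochberg adjustment), so no pair could pass.

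GTPBP1 had the largest log2 ratio of all 49 genes. It too was among the genes that the study chose for RT-qPCR, where the study lists it as higher, by a larger fold than on the arrays. The ratios were 0.59, 0.56, 0.51 and 0.55, with treated signals of 9.61 to 9.93 above control signals of 9.02 to 9.41. The mean was 0.56 ± 0.033 (SD, n = 4), a fold of 1.47 (limma adjusted p = 0.0045). Its 5 probes, with means from 0.49 to 0.56, are not independent: each is shifted by 1 base from the next, and 56 of their 60 bases are shared by all. The last 30 shared bases (within chr28:35620603-35620666, plus strand, EquCab1) are printed because of their composition, with runs of TG in capitals.
GTPBP1, shared by all 5 probes: gTGTGTGTGcaTGTGTGcgcgtgcgTGTGc

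Probes with such a run stood apart as a class. The letters TGTGTGTG, the longest run of TG that all GTPBP1 probes hold, occurred as written in 105 tested probes of 73 genes (0.433% of tested probes). Their median log2 ratio was 0.22, with 50 higher and 0 lower by limma's adjusted p (3 lower at an unadjusted p under 0.05). Leaving out GTPBP1, the median was 0.20 and 45 of 100 probes were higher (45%), against 9.31% higher of the probes without the letters on either strand. In 42 probes that held the letters only on the other strand, the median was -0.046, with 6 higher and 5 lower. The highest probe of the class reached 0.61, above GTPBP1. The search was made after the GTPBP1 probes had been read. The part of the repeat in the GTPBP1 value was not tested, since no GTPBP1 probe lies elsewhere.

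GTPBP2 has a single probe without the letters. It gave 0.16, 0.18, 0.36 and 0.15, with replicate 3 apart from the others, and treated signals (8.12 to 8.33) above all control signals (7.96 to 8.04). The mean was 0.21 ± 0.10 (SD, n = 4, limma adjusted p = 0.036). GTPBP1 was above GTPBP2 on 4 of 4 arrays, by 0.34 ± 0.13 (SD, n = 4).

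Among the elongation factors, EEF1A2 was higher and EEF1E1 lower, and the other 4 tested genes did not pass. EEF1A2 is the eEF1A form used by mature muscle and neurons in place of EEF1A1. Its ratios were 0.23, 0.25, 0.19 and 0.32, and treated signals (7.26 to 7.44) lay above all control signals (7.01 to 7.20). The mean was 0.25 ± 0.057 (SD, n = 4, limma adjusted p = 0.020). With Agilent's processed signals in place of normexp and loess it was 0.60. The probe is dim, with a mean log2 signal of 7.24. Of the skeletal muscle markers, 6 of 10 were higher, beside 9.93% of all tested genes. All 10 markers had positive means (median 0.29), with summed signals of 367559 to 423894 in treated and 297717 to 331024 in control cells. Their part in the EEF1A2 value was not tested.

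EEF1A1, the general form, did not pass, and its direction depended on the processing. Its 3 probes had means of 0.088, -0.093 and -0.072, and the brightest gave 0.13, -0.040, 0.18 and 0.083. It is one of the brightest probes of the array: 2 of its 3 probes exceeded a mean log2 signal of 16, where the median of the 405 tested probes was 0.14. When a running median over signal was subtracted on each array, EEF1A1 turned to -0.26 (limma adjusted p = 0.022). EEF1A2 was above EEF1A1 on 4 of 4 arrays, by 0.16 ± 0.13 (SD, n = 4).

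EEF1E1, a component of the multisynthetase complex that holds aminoacyl-tRNA synthetases, was lower. The values were -0.22, -0.36, -0.10 and -0.14, a mean of -0.20 ± 0.12 (SD, n = 4, limma adjusted p = 0.046). All 4 of its overlapping probes were called, from -0.25 to -0.18. EEF1G, a structural subunit of eEF1, had -0.024. EEF2, which moves the ribosome along the mRNA, had -0.034, 0.015, 0.17 and -0.054 at its brightest probe. The other EEF2 probe had a mean of -0.15 (limma adjusted p = 0.23). EEF2K, the inhibiting kinase of EEF2, had a mean of 0.010, and neither gene passed.

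In the eIF2 family only EIF2A was past the threshold. EIF2A is a monomeric factor distinct from the eIF2 trimer. It gave -0.24, -0.28, -0.051 and -0.19, a mean of -0.19 ± 0.10 (SD, n = 4, limma adjusted p = 0.046), and its other probe -0.20 (limma adjusted p = 0.038). EIF2S1, the alpha subunit that stress kinases phosphorylate, had -0.11, 0.045, -0.093 and -0.25. Its mean of -0.10 ± 0.12 (SD, n = 4) and that of EIF2S2, the beta subunit, at -0.11 did not pass.

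None of the 5 subunits of eIF2B, the exchange factor of eIF2, passed limma's threshold (0 of 5, with 3 at an unadjusted p under 0.05), with means from -0.13 to 0.12. Neither did any of the 4 eIF2 kinases (0 of 4, with 1 at an unadjusted p under 0.05). EIF2AK2, the kinase PKR that double-stranded RNA activates, gave 0.90 on replicate 3 but 0.039, 0.035 and 0.14 on replicates 1, 2 and 4. Its other probes showed the same, with 0.88 and 0.39 on replicate 3 against -0.10 to 0.23 elsewhere. The mean of 0.28 ± 0.42 (SD, n = 4) therefore rested on 1 array. Among 7 tested targets of the eIF2 stress response and phosphatase subunits, only ASNS, which makes asparagine, was higher at 0.34 ± 0.24 (SD, n = 4, limma adjusted p = 0.044), and the list's median was 0.12.

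In the eIF4 group 1 of 9 tested genes was higher and none lower, beside 9.93% higher and 7.16% lower over all tested genes. The means leaned the other way, with 7 negative, 2 positive and a group median of -0.12. At an unadjusted limma p under 0.05 there were 6 genes, EIF4G1 among them. EIF4G1, the scaffold that joins cap and ribosome, gave 0.16, 0.22, 0.12 and 0.22, a mean of 0.18 ± 0.048 (SD, n = 4, limma adjusted p = 0.033). Its other probe, at a separate site of the transcript, went the other way at -0.13 ± 0.10 (SD, n = 4, limma adjusted p = 0.11). The sites differed by 0.31 with the same sign on 4 of 4 arrays (exact sign-flip p = 0.125, the smallest possible), and the mean over both probes was 0.024. EIF4E, the cap-binding protein, had -0.14, 0.015, -0.28 and -0.20 and did not pass (limma adjusted p = 0.10). Its other probe had a mean of 0.0086 (limma adjusted p = 0.90), above the brightest probe on 4 of 4 arrays.

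EIF4EBP1, which binds eIF4E and keeps it from EIF4G1, was higher. The values were 0.10, 0.15, 0.22 and 0.17, a mean of 0.16 ± 0.047 (SD, n = 4, limma adjusted p = 0.041), with signals that overlapped between groups. EIF4A1, a helicase, gave -0.083 at its brightest probe and 0.20 (limma adjusted p = 0.025) at the other, but the array describes the latter as a SUMO-specific peptidase, the neighbouring gene SENP3, so that probe is uncertain. EIF4E1B, EIF4E3 and EIF4ENIF1 failed the filter on dim probes, with no channel detected by it in 4 of 4 arrays, and were not tested.

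EIF5, the factor that stimulates GTP hydrolysis by eIF2, was lower. It gave -0.27, -0.25, -0.23 and -0.39, a mean of -0.28 ± 0.070 (SD, n = 4, limma adjusted p = 0.018), with treated signals (11.89 to 12.03) below all control signals (12.12 to 12.42). A probe named EIF5 at another site had -0.093 (limma adjusted p = 0.18). The array describes that probe as unknown and assigns it to a different transcript model, so site and transcript model cannot be told apart. EIF5A, which helps ribosomes over difficult peptide bonds, had -0.36, 0.075, -0.23 and -0.17, and EIF5A2, its relative, had a mean of 0.067; neither passed.

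EIF5B, which joins the ribosomal subunits, had 4 probes in 2 places. The 2 probes that lie downstream, on the minus strand of chr15, gave -0.21 and -0.16 and did not pass. The 2 upstream probes gave -0.45 ± 0.16 (SD, n = 4, limma adjusted p = 0.017) and -0.55 ± 0.20 (SD, n = 4, limma adjusted p = 0.016). On the arrays the lowest of them read -0.77, -0.55, -0.59 and -0.29. Since the brightest probe was a downstream one, EIF5B was not counted among the 15 genes, and with the mean over its probes it was -0.34 (limma adjusted p = 0.022). The last 30 bases of the 4 probes are printed from upstream to downstream with their starts on chr15. The array assigns the upstream and the downstream pair to different transcript models of EIF5B, so position and transcript model cannot be told apart. The upstream probe at -0.45 is also one of the 42 that hold TGTGTGTG on the other strand, and the part of those letters in its value was not tested. Capitals mark a stop triplet with no earlier stop in frame within the probe.
EIF5B, start 6517193, -0.45: gatggtgaagcaggtggtatcactcagcaa
EIF5B, start 6517133, -0.55: attaatgaacagactaagatgattaaaaat
EIF5B, start 6499524, -0.16: gcaagtatctcctccatcgatgccctcaaa
EIF5B, start 6499446, -0.21: gagctgaagaaagtatttgaaatcatcTAA

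**Figure D3:**
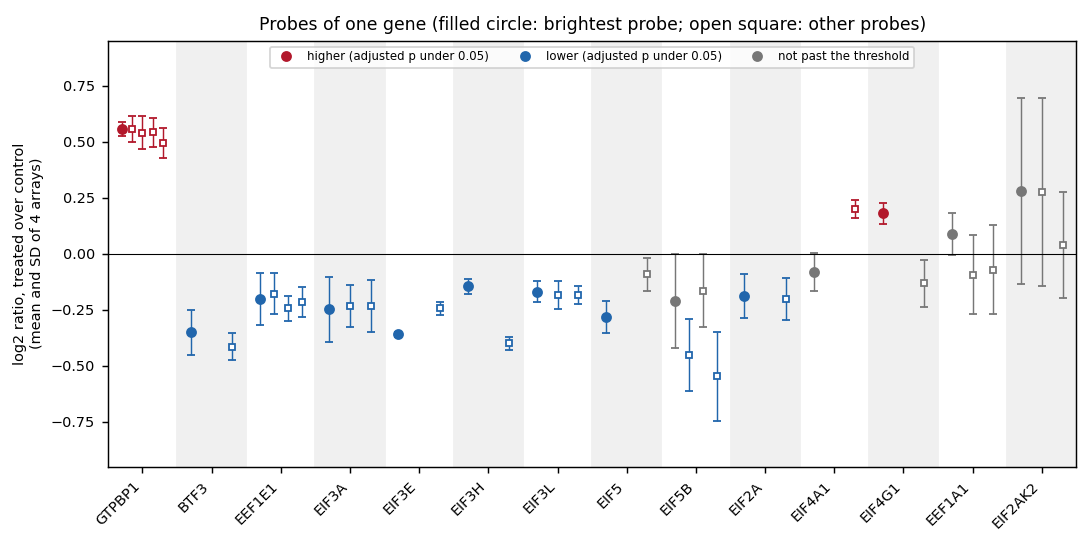
Mean log2 ratio of treated over control cells (y axis, error bars are the SD of 4 arrays) for every tested probe of 14 genes with several probes. Filled circles are the brightest probe and open squares the others, in red for higher, blue for lower and grey for not past the threshold. The probes of GTPBP1, EIF3A, EIF3L and EEF1E1 lie close together, while those of EIF3H, EIF5B, EIF4A1 and EIF4G1 lie apart.

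The eIF1 names gave 3 tested genes, EIF1, EIF1B and EIF1AD, from -0.088 (EIF1AD) to 0.056 (EIF1B). None passed limma's threshold (0 of 3, with 0 at an unadjusted p under 0.05). eIF1 acts in the choice of the start codon, while the array describes EIF1AD only as holding an eIF1A domain. Other genes of translation, in lists beyond the name rule, gave further counts, to be read beside the 9.93% higher and 7.16% lower of all tested genes. Of 7 termination and recycling factors 4 were lower and none higher: ABCE1, which recycles ribosomes (-0.33), NEMF (-0.23), ETF1, the release factor (-0.23), and PELO, which acts on stalled ribosomes (-0.16). PABPC1, the main cytoplasmic poly(A)-binding protein, was lower at -0.37, as the only 1 of 4 on its list. In the list of other initiation and hypusine factors 3 of 7 were lower, DENR, DHX29 and NCBP1, and none was higher.

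The same shares of all tested genes, 9.93% higher and 7.16% lower, stand beside the next counts. Of 15 tested genes that act on the nascent chain, HSPA14, METAP2, SRP19 and SRP9 were lower and SRPR was higher, with a median of -0.055. All 8 mitochondrial translation factors had negative means, between -0.19 and -0.10, of which MTIF3 passed. Of 9 genes of mTOR signalling to translation only TSC2, an inhibitor of the pathway, was higher, at 0.23. The 18 cytosolic aminoacyl-tRNA synthetases had 2 higher and 4 lower genes, with a median of -0.086. The 65 cytosolic ribosomal proteins had 17 higher and 4 lower genes and a median of 0.045, the share of lower genes being close to that over all tested genes. That median stands beside -0.088 for the 49 genes described above, but signal level differed. The higher ribosomal genes had mean log2 signals from 16.3 (RPS26) to 17.7 (RPS18). The lower ones reached 15.0 at most (RPS3A). Above a signal of 16 the 405 tested probes had a median of 0.14, against 0.0012 for the others. The part of signal level in the ribosomal counts was not tested.

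Several calls near the threshold moved with the processing. GTPBP1, GTPBP2, BTF3, EIF3E, EIF3M, EIF5 and EEF1A2 stayed past the threshold with other background corrections, with Agilent's processed signals, with the running median and with the mean over probes. EIF3H, EIF3L, EIF3D and EIF2A were past it neither with Agilent's processed signals nor with the running median. The remaining called genes each failed under some of these settings. EEF1E1 failed without background correction, with normexp at offset 0 and with the running median. EIF4EBP1 failed with offset 0 and with Agilent's signals, EIF4G1 with Agilent's signals and the mean over probes, and EIF3A with offset 0. With a plain shift of each array's median in place of loess, limma called 0 of the 49 genes (4 at an unadjusted p under 0.05) and 0.0495% of all probes.

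**Figure D4:**
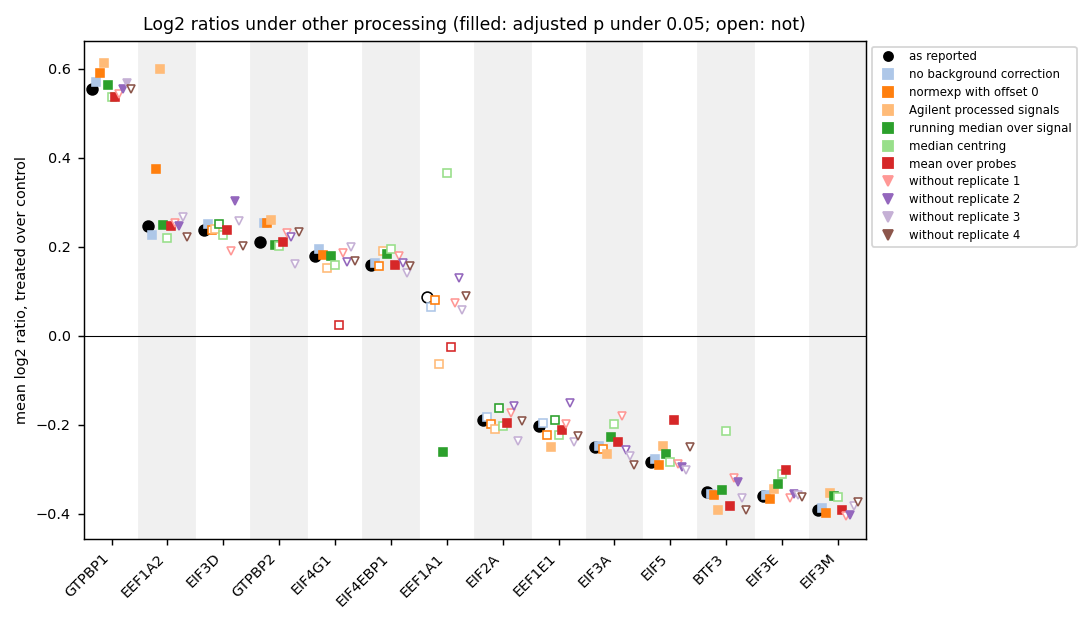
Mean log2 ratio (y axis) of 14 genes under the reported processing (black circles) and under 10 alternatives, squares for other processing and triangles for leaving out 1 array. Filled symbols had a limma adjusted p under 0.05. EEF1A1 lies between -0.26 and 0.37 and crosses 0, while the other genes stay on 1 side.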

How the data were processed

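RNA was measured on 4 two-colour Agilent horse arrays (4x44K), 1 per biological replicate, with treated RNA in Cy5 and control RNA in Cy3. Per the file headers, the authors extracted spot intensities with Feature Extraction 10.10.1.1 on a probe set placed on EquCab1; the log10 ratio that they deposited comes from its background-subtracted, dye-normalized signals, and their series matrix held the same log10 values.

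Mean and background intensities were read with limma 3.58.1 in R 4.3.3, corrected by normexp with an offset of 50 and normalised by loess within each array, with control spots at weight 0 in the loess and outlier-flagged gene spots (7 to 16 per array) left out. Spots of a probe were averaged. For signals of single channels, and for their overlap between groups, mean signals were also quantile-normalised between arrays, which leaves the log2 ratios unchanged. Probes well above background on all 4 arrays in Cy5 or on all 4 in Cy3 were kept (24230 of 43603). The mean log2 ratio was tested against 0 by limma (lmFit, eBayes) with Benjamini-Hochberg adjustment over all tested probes, at 0.05. Each treated signal is thus paired with the control signal on its array, which need not come from a separate control culture. A gene took the value of its tested probe with the highest mean signal. Single differences between probes or genes used an exact sign-flip test over arrays. The number of arrays limits the precision.

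Members and gene lists were chosen with earlier results of these data known. Values on each array are given for BTF3, BTF3L4, NACA, GTPBP1, GTPBP2, EEF1A1, EEF1A2, EEF2, EIF2S1, EIF4E, EIF4EBP1 and EIF5A where tested, and for up to 3 called genes per direction and family. Of the 52 names, 51 were RefSeq symbols for the horse (EIF3C was not). Sequences are from the scanner files. Probes of 1 gene that share 20 bases were counted as 1 site. Alternatives covered background correction, normalisation, filter, variance model, test, probe choice and each array. The fitting script was checked on simulated data. Tables were made in Python 3.11.15 with pandas 2.3.3.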

Additional observations from a re-analysis of the deposited data

Results flagged for a closer look

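The array of 1 replicate stood apart from the other 3 for 2 of the 49 tested genes, by Dixon's ratio for 4 values. Chance flags about 1 gene in 20. EIF2AK2 had a log2 ratio of 0.896 on replicate 3, and GTPBP2 had 0.359 on replicate 3. Without that array the mean of GTPBP2 was 0.16. All 3 EIF2AK2 probes were highest on replicate 3.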

How the results depend on the processing

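The median log2 ratio of the 49 genes kept its sign under every alternative run, from -0.11 (normexp with offset 0) to -0.064 (median centring). Counts of genes past limma's threshold, 15 as reported (6 higher, 9 lower; 33 probes), fell under several. From Agilent's own log ratios, which the series matrix repeats value for value, 9 genes passed, 3 of them higher. With normexp at offset 0, 8 passed, 4 of them lower. With median centring no gene and no probe passed (0 higher, 0 lower, 0 probes; 4 genes at an unadjusted p under 0.05). The methods' t-test (Student's, with Benjamini-Hochberg adjustment) left 1 gene, EIF3E, as 1 lower and 0 higher, and 1 probe. Without the replicate block, that is with treated and control channels as separate samples and no array effect, 4 genes passed (1 higher, GTPBP1, and 3 lower, BTF3, EIF3E and EIF3M) and 13 probes. Leaving out 1 array gave 0 to 10 genes, 0 to 3 higher, 0 to 7 lower and 0 to 25 probes. EEF1A1 turned negative with Agilent's processed signals and the series matrix (-0.062), with the running median (-0.26) and with the mean over probes (-0.026). EEF2 turned negative with the mean over probes (-0.064) and without replicate 3 (-0.024), its range when 1 array was left out being -0.024 to 0.051. Other called genes moved by over 1.5 times without changing sign: BTF3 (-0.21), EIF3H (-0.087) and EIF3L (-0.064) with median centring, EIF3H (-0.27), EIF5 (-0.19) and EIF4G1 (0.024) with the mean over probes, and EEF1A2 with Agilent's signals (0.60) and with normexp at offset 0 (0.38). The cause of these differences was not tested. All other alternatives kept the gene counts within 1.5 times: 13 without background correction, 11 with the running median, 14 without the filter, and 15 with both channels above background, with trend and robust estimation, with array weights and with the mean over probes.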
